A study of Schizosaccharomyces pombe with 6 samples.

Results

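The genes described here encode the nuclear pore complex of the fission yeast Schizosaccharomyces pombe. They were chosen by name: every gene whose symbol is nup followed by digits, and 10 further genes listed singly (npp106, pom34, pom152, cut11, nsp1, rae1, seh1, ely5, amo1 and alm1). The rule found 30 genes, 20 of them of the nup kind, among 5483 annotated features on the arrays, and all 30 had a value on every array. The rule reads symbols and no measured value, but the set was put together with earlier results of these arrays known, so the counts below describe these genes and support no statement that they stand apart from others. The arrays compared 3 strains with 2 biological replicates each. These were the wild-type parent SPB76, a cid14delta strain (SPB101) that lacks the noncanonical poly(A) polymerase Cid14, and an air1delta strain (SPB103) that lacks the zinc-knuckle protein Air1. Cid14 and Air1 belong to TRAMP, a nuclear complex that adds short tails to RNAs and hands them to the exosome for decay. All cultures grew at 30 °C in YES, a rich yeast extract medium, and were collected at an OD600 of 0.5 for total RNA. Each mutant was represented by a single named strain, so a strain and its deletion cannot be told apart.

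The nuclear pore complex is the channel through which proteins and RNAs pass the nuclear envelope. Its scaffold has an outer ring, built from Y-shaped subcomplexes, and an inner ring that lines the membrane. Transmembrane proteins anchor the scaffold. Proteins rich in phenylalanine-glycine (FG) repeats fill the channel and bind transport receptors, filaments on the cytoplasmic side release exported mRNPs, and a basket on the nuclear side gathers RNA and chromatin. In fission yeast several pore proteins come as related pairs, among them Nup131 and Nup132, Nup97 and Npp106, and Nup211 and Alm1.

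The deleted genes had lost their signal. The log2 value of cid14 was 8.92 and 8.84 in wild type and 3.91 and 3.63 in cid14delta, and that of air1 was 10.49 and 10.4 in wild type and 4.42 and 4.9 in air1delta. Array medians lay between 9.21 and 9.29. Per the labels, the wild-type and cid14delta arrays with the same replicate number were collected on the same day and belong to 1 array series, while both air1delta arrays belong to another series with no wild-type array. In every comparison with air1delta, array series and strain therefore cannot be told apart. Target was double-stranded, so a gene and an antisense transcript over it were read together.

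In the main fit few nuclear pore genes were called in cid14delta, and those called in air1delta were all lower. In cid14delta 1 of 30 genes fell, cut11, and 0 rose. In air1delta 8 of 30 fell, namely nup85, nup186, nup40, nup124, nup184, nup120, nup97 and cut11, and 0 rose. The falls were small, from 0.21 to 0.44 on the log2 scale, or 1.16-fold to 1.36-fold. A gene was called where limma's moderated test, fitted to all 6 arrays and adjusted by Benjamini-Hochberg over all features, gave an adjusted p under 0.05. At an unadjusted p under 0.05, 2 genes were higher and 5 lower in cid14delta, where 29.9% of all features had such a p, and 1 was higher and 13 were lower in air1delta, where 41.2% had. Since each array reads the RNA of a whole culture, fewer cells with a transcript and less of it per cell cannot be told apart.

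The share of pore genes called in either direction was close to that of the whole array in air1delta and below it in cid14delta, but all their calls were falls. Over all features 8.66% were called in cid14delta, against 3.33% of pore genes, and 26.2% were called in air1delta, against 26.7%. By direction, 3.88% of all features were called lower in cid14delta and 9.72% in air1delta, against 3.33% and 26.7% of pore genes; 4.78% and 16.4% of all features were called higher, and 0 pore genes. The median change of the 30 genes was -0.05 in cid14delta and -0.12 in air1delta, beside 0.03 in either mutant over all features. Of the 30 changes, 17 were negative in cid14delta (56.7%, against 44% of all features) and 21 in air1delta (70%, against 44.6%). After median centring of every array, features called lower came to 6.47% in cid14delta and 15.1% in air1delta, those called higher to 3.47% and 11.7%, and the pore genes called lower to 6.67% and 40%. Both comparisons use the same wild-type arrays.

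**Figure D1:**
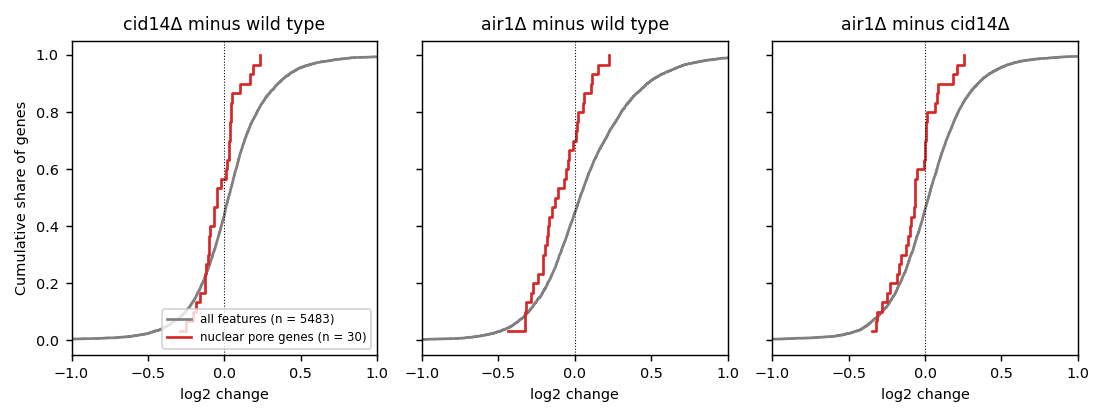
Cumulative share of genes (y axis) against the log2 change (x axis, cut at -1 and 1) for the 30 nuclear pore genes in red and all 5483 features in grey, in 3 panels for cid14delta minus wild type, air1delta minus wild type and air1delta minus cid14delta. The red line is steeper than the grey one in each panel, and in air1delta it lies to the left over most of its course, with medians of -0.12 and 0.03.

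The calls rest on few arrays. The count in air1delta was 1 without wild type replicate 1 and 1 without wild type replicate 2, 4 without cid14delta replicate 1 and 4 without cid14delta replicate 2, and 0 without air1delta replicate 1 and 0 without air1delta replicate 2 (limma; 10 and 9 genes at an unadjusted p under 0.05 in the last cases). In each of these fits the strain left with 1 array is assumed to vary like the others, and leaving out either cid14delta array gives the same test as the 4 wild-type and air1delta arrays alone. The change of cut11 in cid14delta stayed between -0.32 and -0.26 when any 1 of the 6 arrays was left out but no longer passed (adjusted p from 0.0809 to 0.21, with 1 to 5 pore genes at an unadjusted p under 0.05). Nor did it pass under a shared-day block in all 6 arrays (adjusted p = 0.0767) or with a replicate block in the 4 arrays of these strains (adjusted p = 0.148).

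Before any test, the arrays themselves separated for many genes. In air1delta both arrays lay below both wild-type arrays for 20 pore genes, above them for 3, and overlapped for 7; over all features 29.7% lay below and 39.3% above, 69.0% in all. In cid14delta 14 lay below, 8 above and 8 overlapped, where all features gave 27.7% below and 35.0% above, 62.7% in all. The first air1delta array had 24 genes under their wild-type mean and the second had 20, and each cid14delta array had 18. The spread of changes over the 30 genes was 0.12 (SD) in cid14delta and 0.16 in air1delta, against 0.30 and 0.34 over all features. The 95% confidence intervals of the single genes ran no lower than -0.43 (cut11) and no higher than 0.44 (nup211) in cid14delta. In air1delta they ran from -0.64 (nup85) to 0.39 (seh1).

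**Figure D2:**
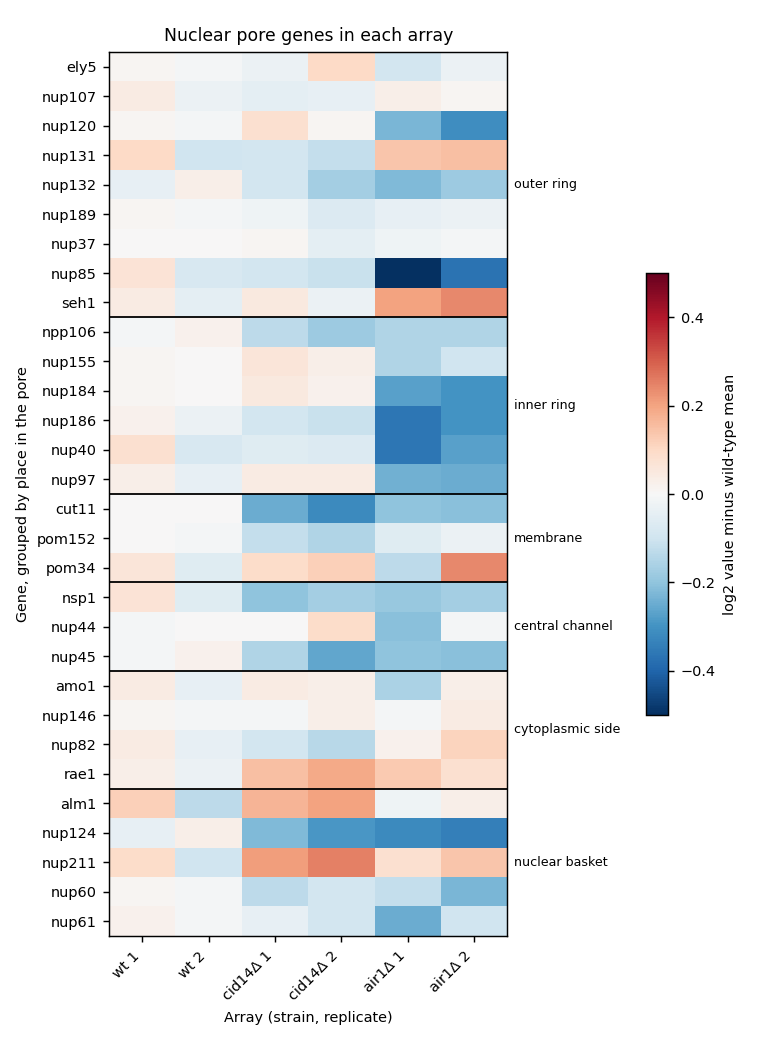
Heat map of the log2 value minus the wild-type mean of the same gene (colour scale from -0.5, blue, to 0.5, red) for the 30 genes in rows, grouped by place in the pore, and the 6 arrays in columns. The air1delta columns are blue for every inner ring gene, and the deepest blue is nup85 in the first air1delta array.

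The outer ring holds 9 of the genes. Of these, 2 scaffold genes fell in air1delta and 7 did not pass, and in cid14delta 0 of 9 passed in either direction (0 at an unadjusted p under 0.05). The 2 falls are 22.2% of the ring, against 9.72% of all features called lower and 26.2% called in either direction. In cid14delta 8.66% of all features were called, and 29.9% had an unadjusted p under 0.05. For nup85 (SPBC17G9.04c), a subunit of the short arm of the Y, the log2 values were 11.27 and 11.12 on the wild-type arrays, 11.11 and 11.09 on the cid14delta arrays, and 10.69 and 10.83 on the air1delta arrays. Both air1delta arrays lay below all 4 others. The gene fell by 0.44 ± 0.08 in air1delta (log2 change ± standard error of the model, n = 2 arrays per strain; adjusted p = 0.0205), so that its signal fell by 26.3%, and its change in cid14delta was -0.10 ± 0.08 (adjusted p = 0.482).

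The gene nup120 (SPBC3B9.16c) encodes the other short-arm scaffold protein. Its values were 10.61 and 10.59 on the wild-type arrays, 10.68 and 10.61 on the cid14delta arrays, and 10.37 and 10.29 on the air1delta arrays, so only the air1delta arrays were low. It fell by 0.27 ± 0.06 in air1delta (adjusted p = 0.0325) and had 0.04 ± 0.06 in cid14delta (adjusted p = 0.681).

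The remaining outer ring genes did not pass. The WD-repeat gene seh1 (SPAC15F9.02), whose protein binds Nup85, stood above wild type with 9.63 and 9.54 on the wild-type arrays, 9.64 and 9.56 on the cid14delta arrays, and 9.79 and 9.83 on the air1delta arrays. Its air1delta change was 0.22 ± 0.07 (adjusted p = 0.0561), the highest of the 30 genes in that mutant. The stem genes nup131 and nup132, which both encode relatives of Nup133, had 0.15 ± 0.08 (adjusted p = 0.22) and -0.19 ± 0.06 (adjusted p = 0.0777) in air1delta, and -0.10 and -0.13 in cid14delta. The difference between the paired genes was not tested. The stem gene nup107, nup37, ely5 (the relative of vertebrate ELYS) and nup189, whose product is cut into Nup98 and Nup96, had changes between -0.05 and 0.04 in both mutants.

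The inner ring was the group with most calls in air1delta. Of its 6 genes 4 fell, 0 rose and 2 did not pass, and both air1delta arrays lay below both wild-type arrays for all 6. Over all features 9.72% fell in air1delta and 29.7% had both arrays below wild type. In cid14delta 0 of 6 passed in either direction (0 higher and 1 lower at an unadjusted p under 0.05), where 8.66% of all features passed. The median change was -0.26 in air1delta and -0.02 in cid14delta.

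A pair of large ring proteins that are distant relatives of each other, Nup184 (the relative of Nup188) and Nup186 (the relative of Nup192), bridge the scaffold. The values of nup184 (SPAP27G11.10c) were 10.64 and 10.63 on the wild-type arrays, 10.68 and 10.65 on the cid14delta arrays, and 10.36 and 10.33 on the air1delta arrays. Those of nup186 (SPCC290.03c) were 10.67 and 10.62, 10.56 and 10.54, and 10.29 and 10.35 in the same order. Replicates lay close together for both genes, and the air1delta arrays were the lowest. In air1delta nup184 fell by 0.29 ± 0.06 (adjusted p = 0.0219) and nup186 by 0.33 ± 0.06 (adjusted p = 0.0197). Their changes in cid14delta were 0.03 and -0.10 (adjusted p = 0.749 and 0.324).

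Nup97 and Npp106 are both relatives of budding yeast Nic96, the inner ring protein that holds the channel proteins in place. For nup97 (SPCC1620.11) the values were 9.94 and 9.87 on the wild-type arrays, 9.95 and 9.95 on the cid14delta arrays, and 9.67 and 9.66 on the air1delta arrays, and the gene fell by 0.24 ± 0.06 in air1delta (adjusted p = 0.0354). For npp106 (SPCC1739.14) they were 9.14 and 9.17, 9.02 and 8.97, and 9.00 and 9.00. The npp106 arrays of both mutants thus lay below wild type, with changes of -0.16 ± 0.06 in cid14delta (adjusted p = 0.139) and -0.15 ± 0.06 in air1delta (adjusted p = 0.106).

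The remaining inner ring genes are nup40, the relative of Nup53, and nup155. For nup40 (SPAC19E9.01c) the values were 11.09 and 10.93 on the wild-type arrays, 10.95 and 10.94 on the cid14delta arrays, and 10.65 and 10.74 on the air1delta arrays. It fell by 0.32 ± 0.08 in air1delta (adjusted p = 0.0372). For nup155 (SPAC890.06) the change was -0.13 ± 0.06 in air1delta (adjusted p = 0.153) and 0.04 in cid14delta.

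Of the 3 membrane genes, 1 fell in both mutants. That is 33.3%, where 3.88% of all features were called lower in cid14delta and 9.72% in air1delta. Cut11, the relative of Ndc1, anchors pores and also holds the spindle pole body in the nuclear envelope. The cut11 (SPAC1786.03) values were 9.14 and 9.14 on the wild-type arrays, 8.89 and 8.82 on the cid14delta arrays, and 8.94 and 8.93 on the air1delta arrays, so both mutants lay below wild type without overlap. It fell by 0.29 ± 0.06 in cid14delta (adjusted p = 0.0432) and by 0.21 ± 0.06 in air1delta (adjusted p = 0.0498). Its signal fell by 18.1% and fell by 13.4%, respectively. Both comparisons use the same wild-type arrays, so the falls are not independent of each other. In air1delta cut11 passed limma's test with each array centred on its median (adjusted p = 0.0252). It did not pass from the 4 wild-type and air1delta arrays alone (adjusted p = 0.0828). The pore membrane genes pom152 and pom34 had -0.13 ± 0.06 and 0.10 ± 0.13 in cid14delta and -0.05 ± 0.06 and 0.05 ± 0.13 in air1delta, and neither passed (adjusted p from 0.196 to 0.787). The air1delta arrays of pom34 were far apart, at 9.27 and 9.64.

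The 3 channel genes encode the FG proteins that form the Nsp1 complex, and 0 of them passed in either mutant (2 lower and 0 higher at an unadjusted p under 0.05 in each). Over all features 8.66% passed in cid14delta and 26.2% in air1delta, and 29.9% and 41.2% had such an unadjusted p. The values of nsp1 (SPAC26A3.15c) were 11.72 and 11.59 on the wild-type arrays, 11.45 and 11.48 on the cid14delta arrays, and 11.46 and 11.48 on the air1delta arrays. Those of nup45 (SPAC22G7.09c) were 11.06 and 11.09, 10.92 and 10.81, and 10.87 and 10.86. For these genes all 4 mutant arrays lay below both wild-type arrays. The nsp1 changes were -0.19 ± 0.07 in cid14delta and -0.18 ± 0.07 in air1delta (adjusted p = 0.139 and 0.0998), and the nup45 changes were -0.20 ± 0.06 and -0.21 ± 0.06 (adjusted p = 0.106 and 0.0645). The third gene, nup44, had 0.05 ± 0.09 and -0.11 ± 0.09.

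On the cytoplasmic side 0 of 4 genes passed in cid14delta (1 higher and 0 lower at an unadjusted p under 0.05) and 0 of 4 in air1delta (0 and 0). The shares of all features that passed were 8.66% and 26.2%, and those with such an unadjusted p were 29.9% and 41.2%. The mRNA export factor gene rae1 (SPBC16A3.05c) had 10.32 and 10.26 on the wild-type arrays, 10.44 and 10.48 on the cid14delta arrays, and 10.42 and 10.37 on the air1delta arrays. All its mutant arrays lay above wild type, with changes of 0.17 ± 0.06 (adjusted p = 0.135) and 0.10 ± 0.06 (adjusted p = 0.246). The genes nup146, the relative of Nup159, nup82, which links the filaments to the scaffold, and amo1, known for its part in arranging interphase microtubules, had changes between -0.12 and 0.06 in both mutants.

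In the nuclear basket 1 of 5 genes fell in air1delta (20%, against 9.72% of all features), 0 rose and 4 did not pass. That gene was nup124 (SPAC30D11.04c), an FG protein known for its part in nuclear import of the Tf1 retrotransposon. Its values were 9.72 and 9.79 on the wild-type arrays, 9.54 and 9.47 on the cid14delta arrays, and 9.44 and 9.42 on the air1delta arrays, with both mutants below wild type. It fell by 0.32 ± 0.06 in air1delta (adjusted p = 0.022), so that its signal fell by 20.1%, and had -0.25 ± 0.06 in cid14delta (adjusted p = 0.0682).

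The long coiled-coil proteins Nup211 and Alm1, both relatives of vertebrate TPR, form the body of the basket. The nup211 (SPCC162.08c) values were 8.42 and 8.23 on the wild-type arrays, 8.54 and 8.58 on the cid14delta arrays, and 8.41 and 8.47 on the air1delta arrays, so both cid14delta arrays lay above both wild-type arrays, and the air1delta arrays overlapped with wild type. The changes were 0.23 ± 0.08 in cid14delta (adjusted p = 0.134), the highest of the 30 genes there, and 0.11 ± 0.08 in air1delta (adjusted p = 0.36). For alm1 (SPAC1486.04c) they were 0.19 ± 0.10 and 0.01 ± 0.10, and wild-type replicate 2 stood low at 9.35 beside 9.60. The genes nup60 and nup61, whose products dock at the nuclear face, had -0.10 and -0.07 in cid14delta and -0.17 and -0.18 in air1delta (adjusted p from 0.115 to 0.58).

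**Figure D3:**
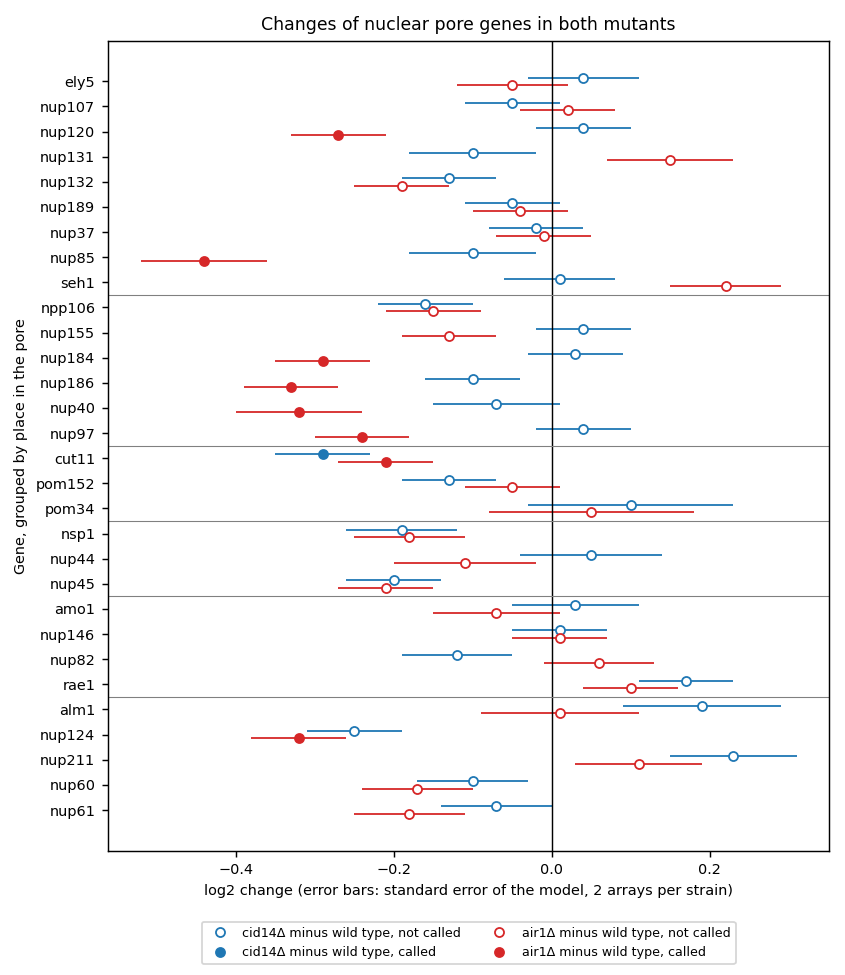
Log2 change (x axis) of each of the 30 genes (y axis, grouped by place in the pore) in cid14delta (blue) and air1delta (red) against wild type, with bars for the standard error of the model and filled points for called genes. The 8 filled red points lie between -0.44 and -0.21, and the only filled blue point is cut11 at -0.29.

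The 22 genes not called in air1delta had changes between -0.21 and 0.22, and the 29 not called in cid14delta had changes between -0.25 and 0.23. Their 95% intervals reached from -0.37 to 0.39 and from -0.41 to 0.44. Changes of the size called here, or larger, thus lie inside the interval of some genes that did not pass.

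**Figure D4:**
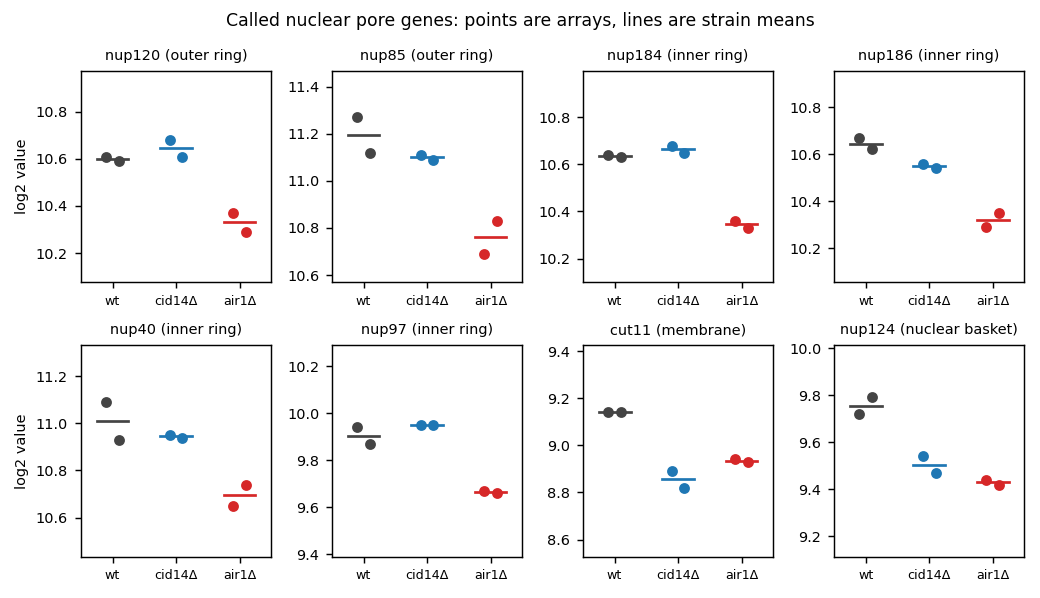
Log2 values (y axis, each panel spanning 0.9 log2 units) of the 8 called genes in wild type, cid14delta and air1delta (x axis), with points for arrays and lines for strain means. The cid14delta points lie well below wild type for cut11 and nup124, and the air1delta points lie below wild type in all 8 panels.

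Whether the mutants differed from each other was asked by comparing air1delta with cid14delta directly. Here 3 of 30 genes were lower in air1delta and 0 were higher (7 and 3 at an unadjusted p under 0.05, which 31.9% of all features had). That is 10% of the pore genes, and over all features 10.0% were called, 4.50% lower and 5.51% higher. These were nup184 (-0.32 ± 0.06, adjusted p = 0.0339), nup120 (-0.32 ± 0.06, adjusted p = 0.0421) and nup97 (-0.28 ± 0.06, adjusted p = 0.0453). For each of them the cid14delta arrays lay at or above the wild-type arrays and the air1delta arrays below. The largest difference was that of nup85, at -0.34 ± 0.08, which did not pass (adjusted p = 0.0569). The arrays of the mutants did not overlap for 15 genes with air1delta lower and 6 with it higher, against 29.0% and 36.3% of all features, 65.2% in all. The other 5 genes called in air1delta against wild type, among them nup186 and nup40, were not called between the mutants, so a difference between the mutants was not shown for them. With a trend with gene length removed 0 of the 3 passed (8 genes at an unadjusted p under 0.05), with differences of -0.22 for nup184, -0.27 for nup120 and -0.23 for nup97 (adjusted p from 0.0643 to 0.0736). Without cid14delta replicate 1, cid14delta replicate 2, air1delta replicate 1 or air1delta replicate 2 the count was 0 (5, 5, 7 and 8 genes at an unadjusted p under 0.05). Without either wild-type replicate it was 1, nup184, with the spread then taken from fewer arrays.

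Pore genes are long, and changes in air1delta were on median slightly lower for the longest genes than for shorter ones. Their median length in the reference table was 2890 nt, from 1040 nt for pom34 to 5701 nt for nup211, against 1710 nt over the 5357 features with a length. In air1delta the median change was 0.081 in the shortest of 4 equal bins of length and -0.042 in the longest, and across features length and change correlated at a Spearman rho of -0.17. In the longest bin, 2495 nt or more, 6 of 17 pore genes fell in air1delta where 11.9% of features were called lower. Among the 30 genes themselves rho was -0.11, across genes that share the same arrays. With the length trend removed from each array 7 pore genes were lower in air1delta: nup45 now passed, and nup120 and nup97 did not, although their changes stayed at -0.24 and -0.20 (adjusted p = 0.0517 and 0.0559). The median change of the 30 was then -0.15.

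**Figure D5:**
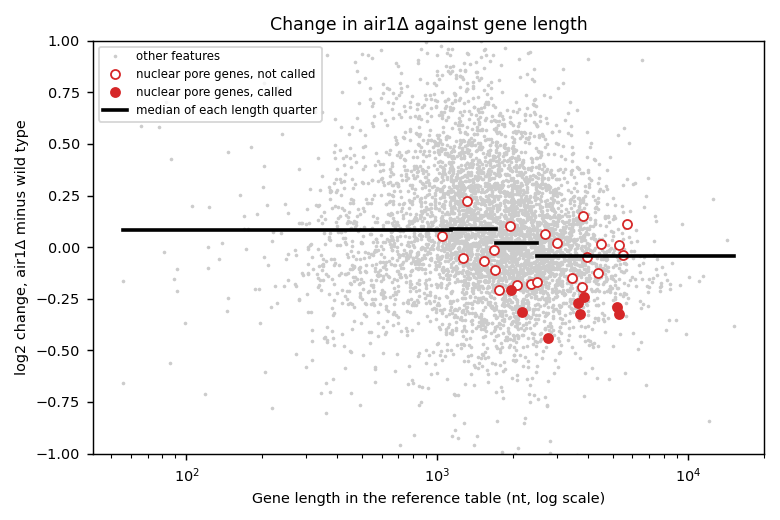
Log2 change in air1delta minus wild type (y axis, cut at -1 and 1, which leaves out 69 of 5327 other features) against gene length in the reference table (x axis, nt, log scale). Black lines give the median change of features in each of 4 bins of length, from 0.081 in the shortest to -0.042 in the longest, and the 8 filled red points are the called pore genes.

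All 30 pore genes overlap some gene of the reference table, mostly noncoding RNA genes, and 9 overlap another measured gene, and with double-stranded target their signals can mix. The lysyl-tRNA synthetase gene krs1, which overlaps nup85, also fell, from 12.91 and 12.91 on the wild-type arrays to 12.61 and 12.57 on those of cid14delta and 12.61 and 12.58 on those of air1delta. Its changes were -0.32 ± 0.06 (adjusted p = 0.0338) and -0.31 ± 0.06 (adjusted p = 0.0186), whereas nup85 passed in air1delta alone. The gene nxt2, which overlaps seh1, had 0.43 ± 0.22 in cid14delta and -0.62 ± 0.22 in air1delta (adjusted p = 0.251 and 0.0935), the opposite sign to seh1 in air1delta. SPCC1620.12c, which overlaps nup97, had -0.23 ± 0.08 in air1delta (adjusted p = 0.0797). The part of these overlaps in the changes was not tested. The other called genes, nup120, nup124, nup184, nup186, nup40 and cut11, overlap no measured feature. In the order of the reference table nup131 lies next to ilv1, whose other side is the deleted air1, and neither nup131 (0.15) nor ilv1 (-0.10 ± 0.08, adjusted p = 0.379) passed in air1delta.

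In 5 lists of other genes of nuclear transport and the nuclear envelope, the share called in air1delta ran from 0% to 22.2%, against 26.2% of all features, and in cid14delta 0 were called, against 8.66%. Of 6 pore partners, genes for proteins that work at the pore but lie outside the naming rule, 1 rose in air1delta, 0 fell and 5 did not pass. It was dbp5, the RNA helicase that releases mRNPs at the cytoplasmic side, which had 10.76 and 10.77 in wild type and 11.15 and 11.08 in air1delta and rose by 0.35 ± 0.06 (adjusted p = 0.0194). Its docking partner gle1 had 0.25 ± 0.09 (adjusted p = 0.088), and the outer ring protein gene sec13 had 0.03 ± 0.10 in air1delta and -0.25 ± 0.10 in cid14delta.

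Of 13 transport receptor genes, 2 fell in air1delta, 0 rose and 11 did not pass, and 12 of the 13 changes were negative with a median of -0.08. The 2 falls are 15.4% of the list, against 9.72% of all features, and the negative changes 92.3%, against 44.6%. The exportin gene crm1 fell by 0.25 ± 0.06 (adjusted p = 0.0309) and kap109, the relative of the importin alpha exporter Cse1, by 0.27 ± 0.06 (adjusted p = 0.0296). The importin alpha gene imp1 had -0.14 ± 0.06 (adjusted p = 0.119) and msn5 -0.15 ± 0.06 (adjusted p = 0.155). Of 7 Ran cycle genes 0 passed in air1delta. At an unadjusted p under 0.05, which 41.2% of all features had, 2 were higher and 2 lower. The Ran exchange factor gene pim1 had 0.18 ± 0.06 and hba1 had 0.21 ± 0.06. Between the mutants the Ran GTPase activator gene rna1 was higher in air1delta (0.28 ± 0.06, adjusted p = 0.0469) and nxt2 lower (-1.05 ± 0.22, adjusted p = 0.0455).

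Of 9 measured mRNA export genes, 2 rose in air1delta (22.2%, against 16.4% of all features), 0 fell and 7 did not pass. The gene sus1, of the TREX-2 and SAGA complexes, had 8.95 and 8.70 on the wild-type arrays, 8.74 and 8.82 on the cid14delta arrays, and 9.79 and 9.96 on the air1delta arrays. It rose by 1.05 ± 0.11 in air1delta (adjusted p = 0.00825), more than any pore gene moved. The THO complex gene tho5 rose by 0.35 ± 0.08 (adjusted p = 0.0364), and mlo3, the gene of an export adaptor, had -0.19 ± 0.08 (adjusted p = 0.133). Of 17 nuclear envelope genes, ish1 (0.46 ± 0.10) and the telomere anchor gene bqt4 (0.29 ± 0.06) rose in air1delta, bqt3, whose product stabilises Bqt4, fell by 0.49 ± 0.08, and 14 did not pass (adjusted p = 0.028, 0.0252 and 0.0175 for the 3 calls). Those 3 are 17.6% of the list, against 26.2% of all features called in either direction. Some of these calls in air1delta depended on the scaling. After quantile normalization tho5 came to 0.14 and ish1 to 0.34 (adjusted p = 0.303 and 0.0752). With each array centred on its median tho5 came to 0.27 and bqt4 to 0.22 (adjusted p = 0.0697 and 0.0529). With the length trend removed tho5 came to 0.25 and crm1 to -0.20 (adjusted p = 0.0761 and 0.0552). The gene tts1, whose membrane protein helps place pores, had 0.27 ± 0.09 in cid14delta and -0.26 ± 0.09 in air1delta and was lower in air1delta than in cid14delta by -0.53 ± 0.09 (adjusted p = 0.0334). Of these calls, that of sus1 against wild type passed whichever of the 6 arrays was left out. Those of crm1, kap109, tho5 and bqt4 in air1delta, and of rna1 and nxt2 between the mutants, did not pass whichever array was left out. In air1delta, dbp5 passed only without cid14delta replicate 1 or 2, bqt3 only without these or wild type replicate 1, and ish1 only without air1delta replicate 2, and tts1 passed between the mutants only without wild type replicate 1 or 2.

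In cid14delta 0 genes of these 5 lists passed limma's test. At an unadjusted p under 0.05 the partners gave 0 higher and 1 lower, the receptors 0 and 1, the Ran cycle 1 and 1, mRNA export 2 and 1, and the envelope 4 and 0. Over all features 29.9% had such a p. Markers of mating type differed somewhat between the strains. Of 6 measured M-cell genes mam2 rose (0.65 ± 0.07) and mfm2 fell (-1.10 ± 0.14) in cid14delta (adjusted p = 0.0157 and 0.0231). Those are 33.3% of the list, against 8.66% of all features. The mfm2 arrays had 5.81 and 5.68 in wild type and 4.5 and 4.77 in cid14delta. The latter lie under the level of a deleted gene (4.9), so the size of this fall is not well measured. In air1delta mam2 rose (0.34 ± 0.07, adjusted p = 0.0231), 16.7% of the list, against 26.2% of all features. Of the 6 M-cell changes in air1delta 3 were positive and 3 negative. The lowest was that of mam1 (-0.46 ± 0.14, adjusted p = 0.0625), which was not called. Of 5 P-cell genes 0 were called in cid14delta, and sxa1 and map4 fell in air1delta (-0.39 ± 0.06 and -0.38 ± 0.10, adjusted p = 0.0136 and 0.0411). These 2 are 40% of a short list, against 9.72% of all features. In air1delta mam2 came to 0.13 after quantile normalization (adjusted p = 0.182), mam2 and map4 did not pass when any 1 wild-type or air1delta array was left out, and sxa1 did not pass without wild type replicate 2 or either air1delta array. Under the replicate block in 6 arrays map4 did not pass (adjusted p = 0.0695). In cid14delta mam2 and mfm2 did not pass without wild type replicate 2 or either cid14delta array. The summed P-cell signal (log2) ran from 12.2 to 12.28 in wild type, from 12.02 to 12.04 in cid14delta and from 11.92 to 11.93 in air1delta. Most of this sum is sxa1 (11.84 and 11.89 in wild type), as no other P-cell gene exceeded 9.13. In air1delta map1, map2 and map3 had -0.10, 0.02 and -0.07 and were not called, so the sum mainly repeats the fall of sxa1. The summed M-cell signal ran from 9.82 to 10.01, from 9.82 to 9.94 and from 9.76 to 9.92. Of the markers 0 were at 0, but no value on these arrays lay under 2.75. The part of these differences in the pore gene values was not tested.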

How the data were processed

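RNA from 3 strains was measured on 6 Affymetrix tiling arrays. The authors deposited 1 table with a log2 value per annotated feature and array; the log2 scale was read from the values (2.75 to 14.8). The submitters' processing notes name affy. Its role, the normalization and the genome build are not stated in those notes or in other text used here. Feature IDs were matched to a RefSeq gene table (assembly ASM294v3), used for names, gene length and neighbours: 5337 by locus tag, 20 by synonym, 126 not matched. Coordinates and sequences are not given.

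Tests used limma 3.58.1 (R 4.3.3) with strain as the only factor (3 residual and 2.51 prior degrees of freedom), two-sided, adjusted over all 5483 features, checked on simulated arrays. No filter was used. Alternatives changed the scaling, the arrays fitted, the block, the prior, the length trend and the filter on dim features. The pore genes and lists were chosen with earlier results of these data known. Values per array are given for called pore genes and the 3 largest changes per comparison, and from each list up to 4 genes by smallest p; array values of nsp1, nup45, npp106, seh1, rae1 and the neighbours were added after they were seen. The tex1 and matmc_1 symbols were not matched, and nup157 is a synonym of nup155. Same-numbered wild-type and cid14delta arrays share a day, which pairs them; their deviations from strain means correlated at -0.00632. The number of arrays limits the precision.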

Additional observations from a re-analysis of the deposited data

How the results depend on the processing

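All 12 calls of pore genes over the 3 comparisons kept their direction under 15 alternatives each, and none passed in every setting. In the block, 4-array, prior and dim-feature settings the fitted change cannot move, so the direction there was fixed in advance. The same holds without an array of the strain not compared, which gives the same test as the 4 arrays alone. Counts of called pore genes were moved as follows (main 1 in cid14delta, 8 in air1delta, 3 between the mutants). With each array centred on its median 2 were called in cid14delta (cut11 and nup124) and 12 in air1delta. The median changes of the pore genes were then -0.11 and -0.19. Within a comparison centring shifts every change by the same amount, so the gap between pore genes and all features did not move. Over all features 190 higher and 355 lower were then called in cid14delta (262 and 213 as deposited). In air1delta these were 640 and 826 (901 and 533 as deposited). Quantile normalization gave 10 in air1delta and splits of 157 and 177 and of 616 and 662. From the 4 arrays of the strains compared, 0, 4 and 1 pore genes and 69, 870 and 488 features were called. With the replicate block in 6 arrays these were 0, 5 and 0 pore genes and 179, 1121 and 72 features, and with the replicate block in 4 arrays 0, 0 and 0 pore genes (2, 7 and 7 at an unadjusted p under 0.05) and 1, 208 and 100 features. The numbers of air1delta arrays share no day with wild type, so there the block pairs nothing known (r = 0.0413; 0.0159 between the mutants). The shared-day block gave 0, 4 and 0 pore genes and 180, 1078 and 68 features. The limma trend and robust prior gave 2, 10 and 5, dim features left out gave 1, 9 and 4, and removing the length trend gave 1, 7 and 0; seh1 passed as higher in air1delta under both of the first. Without 1 array, called pore genes ranged from 0 to 0, from 0 to 4 and from 0 to 1; their median change from -0.07 to -0.01, from -0.15 to -0.07 and from -0.07 to -0.04; and called features from 1 to 338, from 273 to 952 and from 2 to 488. Fewer residual degrees of freedom are part of the block, 4-array and leave-one-out settings; other causes were not tested. All 30 pore genes lay above the level of a deleted gene (4.9). The part of signal level in their changes was not tested, and each strain had only 2 arrays.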
